A study of Mus musculus with 6 samples.

Results

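The genes described here write, read and erase 5-methylcytosine in DNA. They are the DNA methyltransferase genes Dnmt1, Dnmt3a and Dnmt3b, the TET dioxygenase genes Tet1, Tet2 and Tet3, and Uhrf1, Mbd2 and Tdg. They were chosen by name, through their Ensembl gene identifiers, and make up 9 of the 32377 genes in the count table. Polyadenylated RNA was sequenced from 6 libraries. The label of 3 of them is TNFR2-deficient Treg and that of the other 3 TNFR2+ Treg, called TNFR2-positive here. TNFR2 is a tumour necrosis factor receptor encoded by Tnfrsf1b, and regulatory T (Treg) cells are CD4 T cells that restrain immune responses and depend on the transcription factor Foxp3. The labels give no mouse strain, age, tissue, sorting gate or way in which TNFR2 was lost. They also do not say that the libraries came from separate animals or cultures, so p-values measure only the spread between libraries, which may be technical.

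DNMT1 copies methylation onto the new strand after replication, brought there by UHRF1, which recognises hemimethylated CpG. DNMT3A and DNMT3B methylate CpG sites that carry no methyl group. TET enzymes oxidise 5-methylcytosine, TDG excises the most oxidised forms so that base excision repair can restore cytosine, and MBD2 binds methylated CpG and recruits the NuRD remodelling complex. In mouse Treg cells a conserved enhancer of Foxp3 is demethylated, TET2 and TET3 are known to be needed for that state, and loss of UHRF1 is known to impair Treg expansion. RNA counts do not measure methylation itself.

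The libraries held 19296082 to 24038118 counted reads, and 3 counts, the limit that a count of 0 allows, were worth 0.125 to 0.155 CPM, a unit that divides counts by the size of the library; such limits cover counting error only. Tnfrsf1b averaged 7.87 ± 0.503 CPM in TNFR2-deficient and 83.0 ± 2.48 CPM in TNFR2-positive libraries (SD, n = 3 each). Markers of the labelled cell type were low in the TNFR2-deficient libraries, in which 7 Treg markers summed to 28.6 to 35.7 CPM, against 494 to 547 CPM in TNFR2-positive libraries. The groups also differed in markers of other cells. Double-positive thymocyte markers summed to 2436 to 2522 CPM in TNFR2-deficient and 148 to 160 CPM in TNFR2-positive libraries, with Rag1, a recombinase gene of developing lymphocytes, at 918 CPM in TNFR2-deficient and 3.31 CPM in TNFR2-positive libraries. In TNFR2-deficient libraries T cell markers summed to 2505 to 2601 CPM, with Trac, the T cell receptor alpha constant gene, at 209 CPM, against 809 to 847 CPM and 141 CPM in TNFR2-positive libraries. In TNFR2-deficient libraries B cell markers summed to 7435 to 7795 CPM, myeloid markers to 814 to 884 CPM, erythroid markers to 18067 to 20615 CPM and platelet markers to 14.0 to 16.6 CPM. In TNFR2-positive libraries the same sums were 6138 to 6296 CPM for B cell, 341 to 375 CPM for myeloid, 4236 to 7010 CPM for erythroid and 4.67 to 5.52 CPM for platelet markers. The thymocyte and T cell lists share Cd8b1, so their sums are not wholly separate measures. Cd8b1 averaged 502 CPM in TNFR2-deficient and 106 CPM in TNFR2-positive libraries. Called higher in TNFR2-deficient libraries were 8 of 8 thymocyte, 8 of 8 T cell, 4 of 8 B cell (with 2 lower), 7 of 8 myeloid, 7 of 7 erythroid and 4 of 4 platelet markers tested, and no marker was at 0 in all libraries of a group. The part of these cells in the results below was not tested, and in such bulk RNA fewer cells of a type and less RNA per cell cannot be told apart. TNFR2-positive library 1 stood apart from the other 2 of its group, with a chi-square per gene of 13.9 and 18.5 against them, where they had 2.45 against each other.

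Of the 9 genes, 6 were lower in TNFR2-deficient libraries (Dnmt1, Dnmt3a, Dnmt3b, Tet2, Tet3 and Uhrf1), 1 was higher (Mbd2) and 2 did not pass the test (Tet1 and Tdg). These calls came from edgeR's quasi-likelihood test with Benjamini-Hochberg adjustment over all 17022 genes tested, at an adjusted p below 0.05. The test called 69.3% of all tested genes, 35.1% higher and 34.2% lower, so a call alone did not set a gene apart here. The median log2 fold change was -0.58 over the 9 genes and 0.04 over all tested genes. Tet2 had the largest change of the 9 and ranked 2270 of 17022 by size. The libraries of the groups did not overlap for 8 of the 9 genes, 2 of them higher and 6 lower; among all tested genes the groups did not overlap for 74.5%, 38.2% higher and 36.3% lower. In a length-adjusted fit, offsets took out a relation between fold change and gene length that is described below. That fit called 3 of the 9 higher and 5 lower, and called 11308 of all 16643 genes tested in it, in either direction. The median log2 fold change there was -0.13 over the 9 genes and 0.10 over all genes. Dnmt3a and Tet1 changed sign there, Tet1 without passing the test in either fit.

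**Figure D1:**
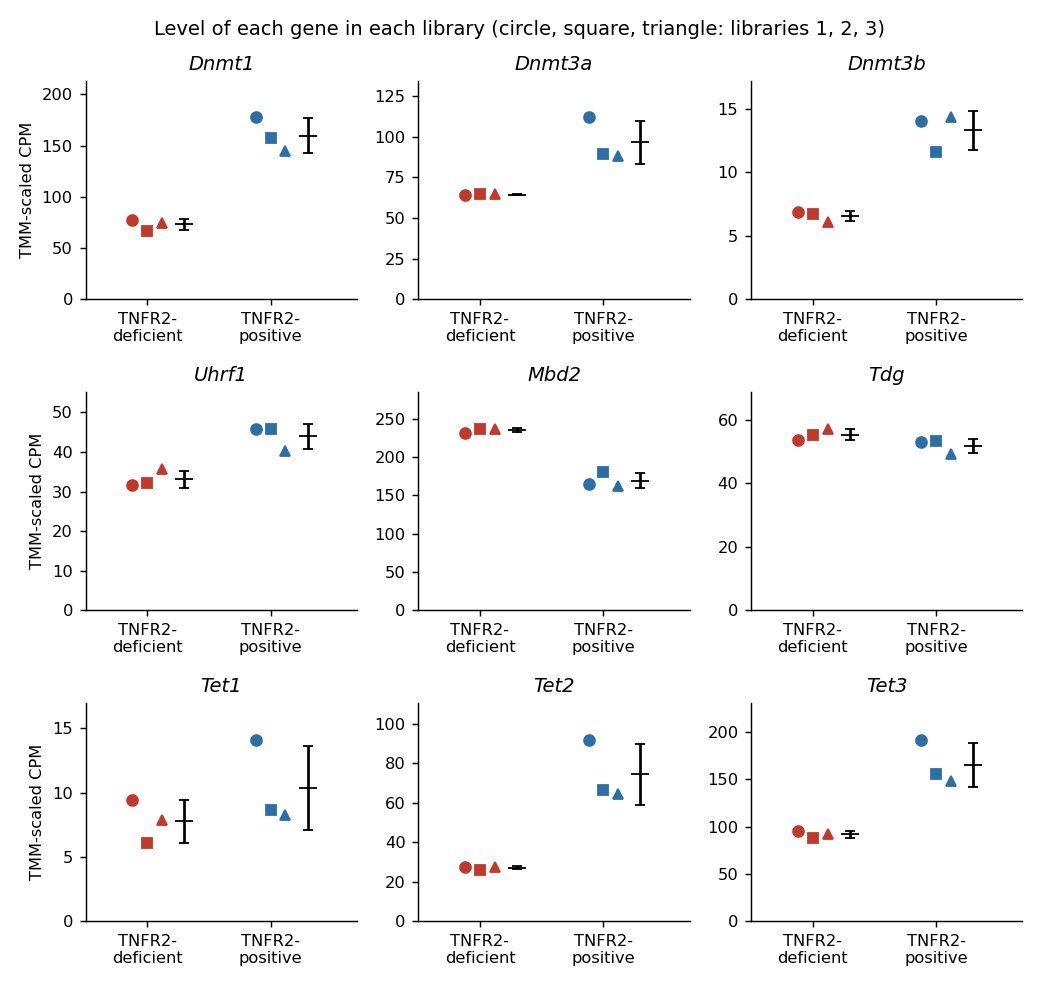
Level of each gene, in CPM scaled by the TMM method (vertical axes, each starting at 0), in the 3 TNFR2-deficient libraries (red, left) and the 3 TNFR2-positive libraries (blue, right); circles, squares and triangles are libraries 1, 2 and 3, and black bars show the mean and SD. The groups separate for every gene but Tet1, and TNFR2-positive library 1 is the highest of its group for Dnmt1, Dnmt3a and the 3 TET genes.

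Dnmt1 (ENSMUSG00000004099, chromosome 9), the maintenance methyltransferase, had 77.5, 66.7 and 74.5 CPM in TNFR2-deficient libraries, against 177, 158 and 144 CPM in TNFR2-positive libraries. Every TNFR2-deficient library was below every TNFR2-positive one. Mean levels were 72.9 ± 5.57 CPM in TNFR2-deficient and 160 ± 16.7 CPM in TNFR2-positive libraries (SD, n = 3 each), a 2.19-fold lower level with a log2 fold change of -1.13 (SE 0.0843, 95% interval -1.32 to -0.95, edgeR adjusted p = 4.12e-07). Uhrf1 (ENSMUSG00000001228, chromosome 17), its partner at replicated DNA, had 31.6, 32.2 and 35.6 CPM in TNFR2-deficient libraries against 45.7, 45.9 and 40.2 CPM in TNFR2-positive libraries. The groups again did not overlap, but the gap was narrower: Uhrf1 was 1.33-fold lower, with a log2 fold change of -0.41 (SE 0.0757, edgeR adjusted p = 0.000478). The log2 ratio of Uhrf1 to Dnmt1 level per kilobase was -0.35 ± 0.136 in TNFR2-deficient and -1.07 ± 0.0904 in TNFR2-positive libraries (SD, n = 3 each), a difference of 0.72. All 3 TNFR2-deficient ratios lay above all 3 TNFR2-positive ones (two-sided exact permutation test p = 0.1, the smallest that 3 libraries against 3 allow). Dnmt1 has 7377 bases of exon and Uhrf1 4259, and this ratio was not adjusted for the relation between fold change and gene length. In the length-adjusted fit the log2 fold changes lay closer together, at -0.78 for Dnmt1 and -0.42 for Uhrf1.

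Dnmt1 and Uhrf1 are also the members whose promoters held letters of the E2F type, the motif of factors that drive S phase genes, which is why these sequences are shown. The 250 bases before each start in the RefSeq promoter table (GRCm38.p6) were searched on both strands for TTTCCCGC, TTTCGCGC, TTTGCCGC and TTTGGCGC. A match was found in 2 of the 13 promoters listed for 8 of the genes, all but Mbd2, and in 610 of all 32817 promoters (1.86%). Counted per gene, over any of its promoters, the letters were present in 4 of 12 S phase genes that had a promoter in the table and in 2.16% of all genes. The searched letters all contain CpG, and the shares over all promoters and all genes were not matched for CpG content. The part of CpG content in the matches was not tested. Both sequences run 5′ to 3′ on the gene's strand, with the matched letters in capitals.
Uhrf1, the second listed start, chr17:56304063-56304312, plus strand: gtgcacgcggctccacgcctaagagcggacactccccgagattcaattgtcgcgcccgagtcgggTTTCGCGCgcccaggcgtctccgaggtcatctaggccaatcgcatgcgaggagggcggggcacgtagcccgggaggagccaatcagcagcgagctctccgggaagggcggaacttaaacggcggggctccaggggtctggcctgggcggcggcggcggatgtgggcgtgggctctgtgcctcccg
Dnmt1, a stretch of the first listed promoter, chr9:20952824-20952853, minus strand: ggtttccgcgcGCGCGAAAaagccggggtc
The Uhrf1 letters began at position -185 from the start and lay in no annotated exon. The Dnmt1 letters began at position -219, read as the reverse complement of TTTCGCGC, and lay in an exon of another annotated Dnmt1 transcript. A match of letters is not a bound site. The Uhrf1 promoter shown held 30 CpG pairs, against a median of 6 and an upper quartile of 16 over all promoters.

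Dnmt3b (ENSMUSG00000027478, chromosome 2), a de novo methyltransferase best known from early embryos, was low in both groups. It had 6.83, 6.68 and 6.11 CPM in TNFR2-deficient libraries, against 14.1, 11.6 and 14.3 CPM in TNFR2-positive libraries, which is 147 to 158 counts in TNFR2-deficient and 226 to 328 counts in TNFR2-positive libraries. The groups did not overlap, and Dnmt3b was 2.04-fold lower (log2 fold change -1.03, SE 0.115, edgeR adjusted p = 9.93e-06). Dnmt3a (ENSMUSG00000020661, chromosome 12), the main de novo enzyme of mature T cells, had 64.1, 64.6 and 64.8 CPM in TNFR2-deficient libraries against 112, 89.7 and 88.1 CPM in TNFR2-positive libraries. Its TNFR2-deficient libraries were nearly identical, and the spread came from the TNFR2-positive group, whose library 1 was highest. Dnmt3a was 1.5-fold lower (log2 fold change -0.58, SE 0.0864, edgeR adjusted p = 8.53e-05). The value was -0.47 without TNFR2-positive library 1, but in the length-adjusted fit its log2 fold change was 0.12, slightly higher in TNFR2-deficient libraries (edgeR adjusted p = 0.0413).

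Tet2 (ENSMUSG00000040943, chromosome 3) had the largest difference of the 9 genes, with 27.7, 26.3 and 27.5 CPM in TNFR2-deficient libraries against 92.0, 66.6 and 64.6 CPM in TNFR2-positive libraries. The lowest TNFR2-positive library was above the highest TNFR2-deficient one by more than the range within the TNFR2-deficient group. Tet2 was 2.74-fold lower (log2 fold change -1.46, SE 0.119, edgeR adjusted p = 8.63e-07), with a log2 fold change of -1.27 without TNFR2-positive library 1 and -0.72 in the length-adjusted fit (edgeR adjusted p = 4.81e-08). Tet3 (ENSMUSG00000034832, chromosome 6), the most abundant TET transcript here, had 95.8, 87.7 and 92.1 CPM in TNFR2-deficient libraries against 192, 155 and 148 CPM in TNFR2-positive libraries. The groups did not overlap, and Tet3 was 1.80-fold lower (log2 fold change -0.85, SE 0.0906, edgeR adjusted p = 7.05e-06). In the length-adjusted fit its log2 fold change was -0.13 (edgeR adjusted p = 0.027), and -0.08 with the longest transcript as the length (edgeR adjusted p = 0.151).

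Tet1 (ENSMUSG00000047146, chromosome 10), the TET enzyme best known from embryonic stem cells, was the least abundant per kilobase of the 9. It had 9.38, 6.05 and 7.90 CPM in TNFR2-deficient libraries, against 14.1, 8.65 and 8.29 CPM in TNFR2-positive libraries. TNFR2-deficient library 1 was above 2 of the 3 TNFR2-positive libraries. The log2 fold change was -0.42 (SE 0.207, 95% interval -0.87 to 0.04, edgeR adjusted p = 0.0918), an interval that spans 0. It was -0.12 without TNFR2-positive library 1 (edgeR adjusted p = 0.478). Without TNFR2-deficient library 1 it was -0.57 (edgeR adjusted p = 0.0373), and -0.56 without TNFR2-positive library 3 (edgeR adjusted p = 0.0345). With replicate number as a term in the fit it was -0.40 (edgeR adjusted p = 0.0112). In the length-adjusted fit it was 0.27 (edgeR adjusted p = 0.113), and 0.49 with longest transcripts as length (edgeR adjusted p = 0.00533). Tet1 was thus called lower in some alternative fits and higher in others.

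Mbd2 (ENSMUSG00000024513, chromosome 18), the methyl-CpG reader, was the most abundant of the 9 per kilobase, and the only one called higher before adjustment for length. It had 232, 237 and 236 CPM in TNFR2-deficient libraries, against 165, 181 and 162 CPM in TNFR2-positive libraries. The groups did not overlap, and Mbd2 was 1.39-fold higher (log2 fold change 0.48, SE 0.0610, edgeR adjusted p = 2.84e-05), with the same log2 fold change of 0.48 in the length-adjusted fit. Tdg (ENSMUSG00000034674, chromosome 10), the glycosylase that removes oxidised cytosines, had 53.7, 55.1 and 57.3 CPM in TNFR2-deficient libraries against 53.1, 53.2 and 49.2 CPM in TNFR2-positive libraries. The TNFR2-deficient libraries were all higher, but the log2 fold change was 0.10 (SE 0.0619, 95% interval -0.04 to 0.23, edgeR adjusted p = 0.189), and 0.18 in the length-adjusted fit (edgeR adjusted p = 0.00913). The Tdg value is uncertain, because it may share reads with near copies and with Glt8d2, which overlaps it on the other strand, and the strand setting of the counting is not given in the sources used here. Glt8d2 had 106 to 115 counts in TNFR2-deficient and 22 to 27 in TNFR2-positive libraries, and the copy Tdg-ps had 126 to 138 in TNFR2-deficient and 78 to 86 in TNFR2-positive libraries, up to 10.6% of the Tdg count. The copy Gm9855 had 50 to 83 counts in TNFR2-deficient and 89 to 122 in TNFR2-positive libraries.

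**Figure D2:**
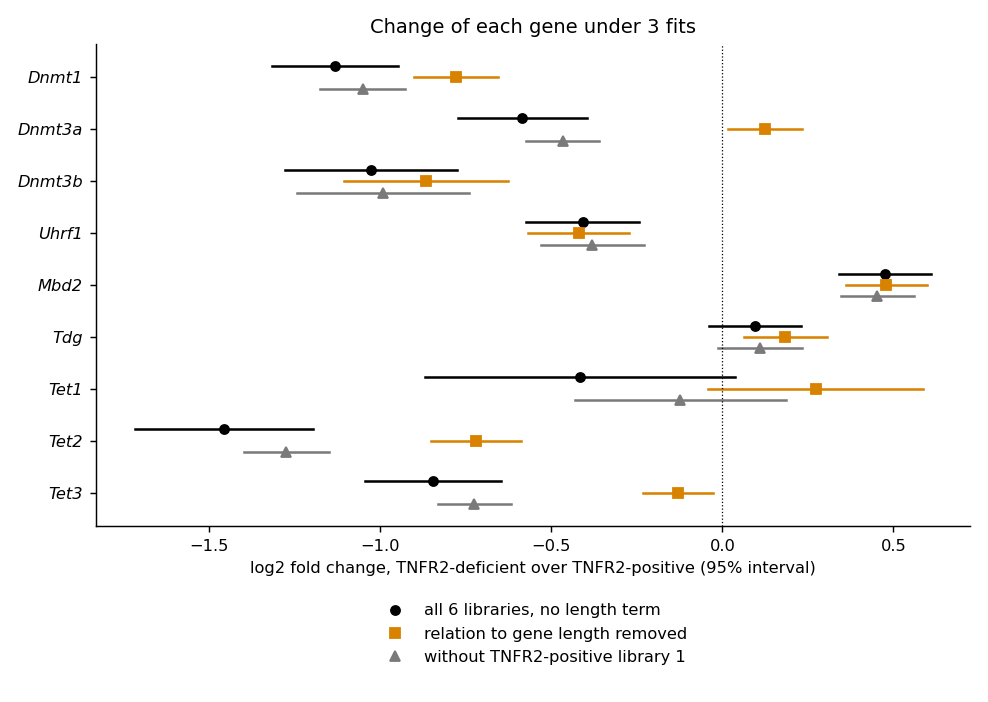
Log2 fold change of each gene, TNFR2-deficient over TNFR2-positive (horizontal axis), with its 95% interval, in the fit of all 6 libraries (black circles), adjusted for gene length (orange squares) and without TNFR2-positive library 1 (grey triangles). Uhrf1 and Mbd2 hardly move between fits, Tet2 moves to -0.72 and Dnmt3a to 0.12 after that adjustment, and the interval of Tet1 spans 0 in all 3.

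Gene length moved with these results. Across the 16643 tested genes with a length in the mouse annotation, the log2 fold change was lower in genes with longer exons (Spearman's rho -0.298 across genes, which are not independent replicates, given with no test). Among the 1220 tested genes with over 10 kb of exon, 73.0% were called lower and 10.5% higher, with a median log2 fold change of -0.60. Among the 15423 shorter genes, 31.2% were called lower and 37.3% higher, with a median of 0.09. Dnmt3a, Tet1, Tet2 and Tet3 are among the long genes, with 15457 to 16870 bases of exon, and the values of Tet2 and Tet3 lay below that class median and those of Dnmt3a and Tet1 above it. Dnmt1, with 7377 bases, and Dnmt3b, with 5106, are not in the long class, and their log2 fold changes were -0.78 and -0.87 in the length-adjusted fit. Mitochondrial genes took 6.14 to 6.37% of counts in TNFR2-deficient and 4.65 to 5.23% in TNFR2-positive libraries, groups that did not overlap; the part of RNA quality in this relation was not tested.

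**Figure D3:**
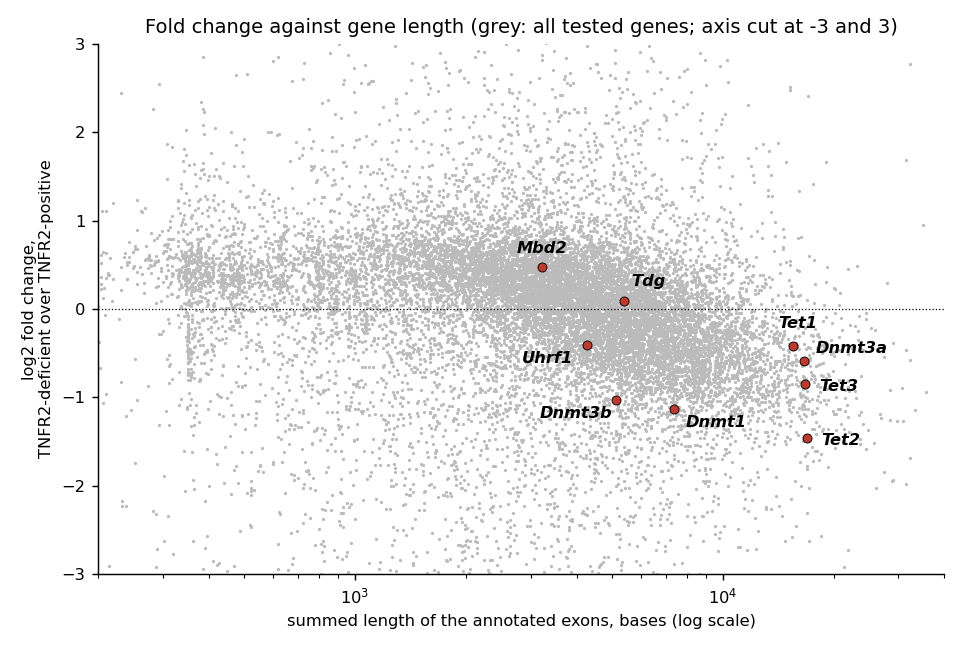
Log2 fold change, TNFR2-deficient over TNFR2-positive (vertical axis, cut at -3 and 3), against the summed length of annotated exons in bases (horizontal log axis), for all tested genes with a length (grey) and the 9 genes (red). The grey cloud bends downward among long genes, where Dnmt3a and the 3 TET genes sit; Tet2 lies lowest of these 4.

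Levels divided by exon length allowed the genes to be ordered within a library group. In TNFR2-deficient libraries Mbd2 was highest at 73.1 CPM per kilobase, followed by Tdg (10.3), Dnmt1 (9.89), Uhrf1 (7.78), Tet3 (5.50), Dnmt3a (3.87), Tet2 (1.61), Dnmt3b (1.28) and Tet1 (0.503), each value a mean in CPM per kilobase. Tdg and Dnmt1 overlapped between libraries there. In TNFR2-positive libraries the mean levels were 52.6 CPM per kilobase for Mbd2, 21.7 for Dnmt1, 10.3 for Uhrf1, 9.89 for Tet3, 9.65 for Tdg, 5.81 for Dnmt3a, 4.41 for Tet2, 2.61 for Dnmt3b and 0.669 for Tet1. Neighbours whose libraries overlapped there were Uhrf1 and Tet3, Tet3 and Tdg, and Dnmt3a and Tet2. With the longest transcript as length, Tet3 and Tdg came above Uhrf1 in TNFR2-positive libraries. By exon length Dnmt1 stood clear of every gene but Mbd2 in TNFR2-positive libraries, and was level with Tdg in TNFR2-deficient libraries.

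The makeup of each enzyme family differed too. Tet2 made up 20.5, 21.6 and 21.3% of the summed TET level per kilobase in TNFR2-deficient libraries, against 30.5, 28.6 and 28.9% in TNFR2-positive libraries. Tet3 made up 72.3 ± 0.593% and Tet1 6.57 ± 1.09% in TNFR2-deficient libraries, against 66.2 ± 1.64% and 4.40 ± 0.609% in TNFR2-positive libraries (SD, n = 3 each). Among DNMT genes, Dnmt1 made up 65.7 ± 1.84% and Dnmt3a 25.8 ± 1.37% in TNFR2-deficient libraries, against 72.0 ± 1.47% and 19.3 ± 0.749% in TNFR2-positive libraries. The share of Tet2 and of Dnmt1 was thus lower in TNFR2-deficient libraries, and that of Tet3, Tet1 and Dnmt3a higher. Each of these 5 shares had groups that did not overlap (two-sided exact permutation p = 0.1 each, the smallest possible, and 0.1 cannot pass 0.05). The Dnmt3b share overlapped, at 8.53 ± 0.654% in TNFR2-deficient and 8.72 ± 1.25% in TNFR2-positive libraries (exact permutation p = 0.9). The summed TET level was 7.99, 7.20 and 7.66 CPM per kilobase in TNFR2-deficient libraries against 17.9, 13.8 and 13.2 in TNFR2-positive libraries. The summed DNMT level was 15.7, 14.2 and 15.2 CPM per kilobase in TNFR2-deficient libraries against 33.5, 29.0 and 27.7 in TNFR2-positive libraries. Both sums were lower in every TNFR2-deficient library. The log2 ratio of the TET to the DNMT sum was -0.98 ± 0.00629 in TNFR2-deficient and -1.01 ± 0.0917 in TNFR2-positive libraries, a difference of 0.03 (exact permutation p = 0.4). The TET genes and Dnmt3a are long, and these shares and sums were not adjusted for the relation to gene length described above.

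**Figure D4:**
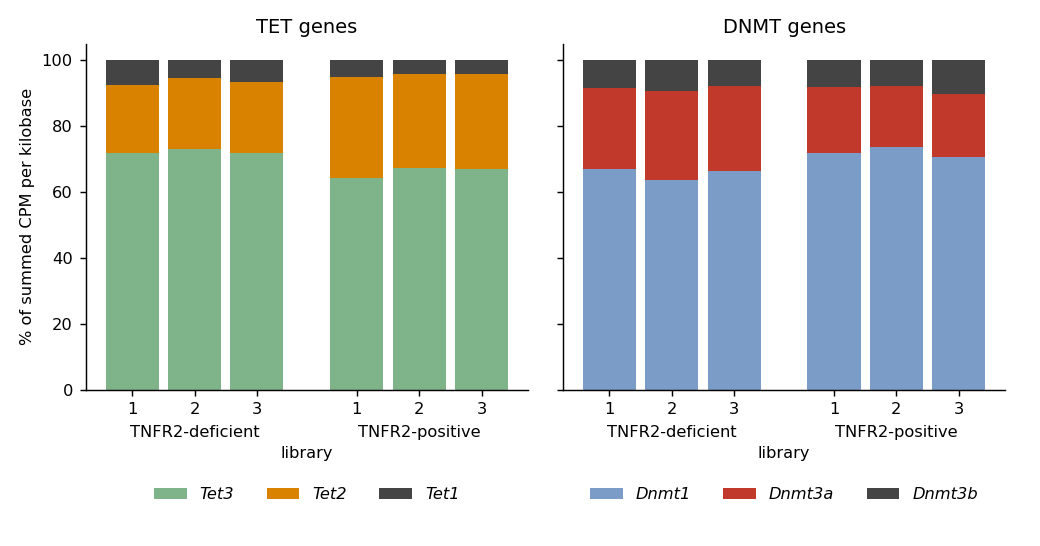
Share of each gene in the summed level per kilobase of its family, in percent (vertical axis), for the TET genes (left panel) and the DNMT genes (right panel), with 1 bar per library and TNFR2-deficient libraries left of TNFR2-positive ones in each panel. The Tet2 share is 20.5 to 21.6% in TNFR2-deficient and 28.6 to 30.5% in TNFR2-positive libraries, and the Dnmt3a share is 24.5 to 27.3% in TNFR2-deficient and 18.6 to 20.1% in TNFR2-positive libraries.

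Genes that work beside these enzymes moved in both directions, as did all tested genes, of which 35.1% were called higher and 34.2% lower. Of 9 tested partners of maintenance methylation, 3 were higher, 5 lower and 1 not called, with a median log2 fold change of -0.22, which lay between -0.20 and -0.05 when 1 library was left out and was -0.10 in the length-adjusted fit. Cdca7, a partner of the HELLS remodeller that keeps heterochromatin methylated, rose to 98.4 ± 3.22 CPM in TNFR2-deficient libraries, against 30.2 ± 1.56 CPM in TNFR2-positive libraries (SD, n = 3 each; log2 fold change 1.71, edgeR adjusted p = 1.46e-09). Its paralogue Cdca7l moved the other way (log2 fold change -1.19, edgeR adjusted p = 2.87e-06). A list of 9 other methyl-CpG readers and family relatives had 2 genes higher (Mbd3 and Mbd6) and 7 lower (median -0.37). Not all of its genes, Mbd3 and Mbd6 included, are known to encode proteins that select methylated CpG. In the length-adjusted fit 3 were higher and 3 lower, with a median of -0.03. Mbd6 averaged 101 CPM in TNFR2-deficient and 49.7 CPM in TNFR2-positive libraries (log2 fold change 1.03, edgeR adjusted p = 3.55e-07). Zbtb4, a zinc finger protein that binds methylated CpG, averaged 65.5 CPM in TNFR2-deficient and 94.8 CPM in TNFR2-positive libraries (log2 fold change -0.53, edgeR adjusted p = 2.6e-05, and -0.30 in the length-adjusted fit). Of 9 NuRD subunits 3 were higher, 4 lower and 2 not called (median -0.03, and 0.04 in the length-adjusted fit). The remodelling ATPases Chd3 and Chd4 fell to 212 and 408 CPM in TNFR2-deficient libraries, against 439 and 645 CPM in TNFR2-positive libraries (edgeR adjusted p = 3.66e-07 and 2.69e-05). The log2 fold change of Chd4 was -0.66, and -0.31 in the length-adjusted fit. The number of NuRD subunits called higher was 1 without TNFR2-deficient library 1, 0 without TNFR2-deficient library 3 and 1 without TNFR2-positive library 3.

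Downstream of the TET enzymes, base excision and demethylation partners had 7 of 14 tested genes higher, 2 lower and 5 not called, where 35.1% of all tested genes were called higher. Their median log2 fold change was 0.19, and 0.10 to 0.23 when 1 library was left out. In the length-adjusted fit 5 were higher and 3 lower, and their median of 0.12 was near the 0.10 of all genes in that fit. DESeq2 called 4 of them higher. Neil1, a glycosylase that can excise oxidised bases, averaged 87.2 CPM in TNFR2-deficient and 41.1 CPM in TNFR2-positive libraries (log2 fold change 1.08, edgeR adjusted p = 3.87e-08). Lig3, a DNA ligase of this repair, fell to 8.76 CPM in TNFR2-deficient libraries, against 30.0 CPM in TNFR2-positive libraries (log2 fold change -1.78, edgeR adjusted p = 3.8e-07). TET cofactor and regulator genes were split, with 5 of 11 higher, 5 lower and a median of 0.02, which was -0.14 in the length-adjusted fit. Idh2 and Idh1, which make the 2-oxoglutarate that TET enzymes consume, rose to 55.6 and 26.9 CPM in TNFR2-deficient libraries, against 23.3 and 15.6 CPM in TNFR2-positive libraries (edgeR adjusted p = 1.39e-08 and 3.53e-06).

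The methyl donor cycle supplies S-adenosylmethionine to the methyltransferases. Of its 14 tested genes 1 was higher, 10 lower and 3 not called, where 34.2% of all tested genes were called lower. The median log2 fold change was -0.39 against 0.04 over all genes, and -0.35 against 0.10 in the length-adjusted fit. The folate enzymes Mthfd1 and Shmt1 fell to 31.1 and 11.7 CPM in TNFR2-deficient libraries, against 54.5 and 21.3 CPM in TNFR2-positive libraries (edgeR adjusted p = 6.9e-07 and 5.35e-06). S phase and proliferation genes had 2 of 16 higher, 9 lower and 5 not called (median -0.33). Top2a, a topoisomerase of dividing cells, averaged 68.7 CPM in TNFR2-deficient and 129 CPM in TNFR2-positive libraries (log2 fold change -0.91, edgeR adjusted p = 1.26e-06, and -0.53 in the length-adjusted fit). The replication helicase gene Mcm4 averaged 63.4 CPM in TNFR2-deficient and 92.4 CPM in TNFR2-positive libraries (log2 fold change -0.54, edgeR adjusted p = 7.85e-06). Dnmt1 and Uhrf1, which are also induced in cycling cells, had log2 fold changes of -1.13 and -0.41 beside that median, and the part of cell division in them was not tested. The number of methyl donor genes called higher was 0 without TNFR2-deficient library 1, and that of S phase genes was 1 without TNFR2-deficient library 1, 2 or 3 or TNFR2-positive library 2.

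**Figure D5:**
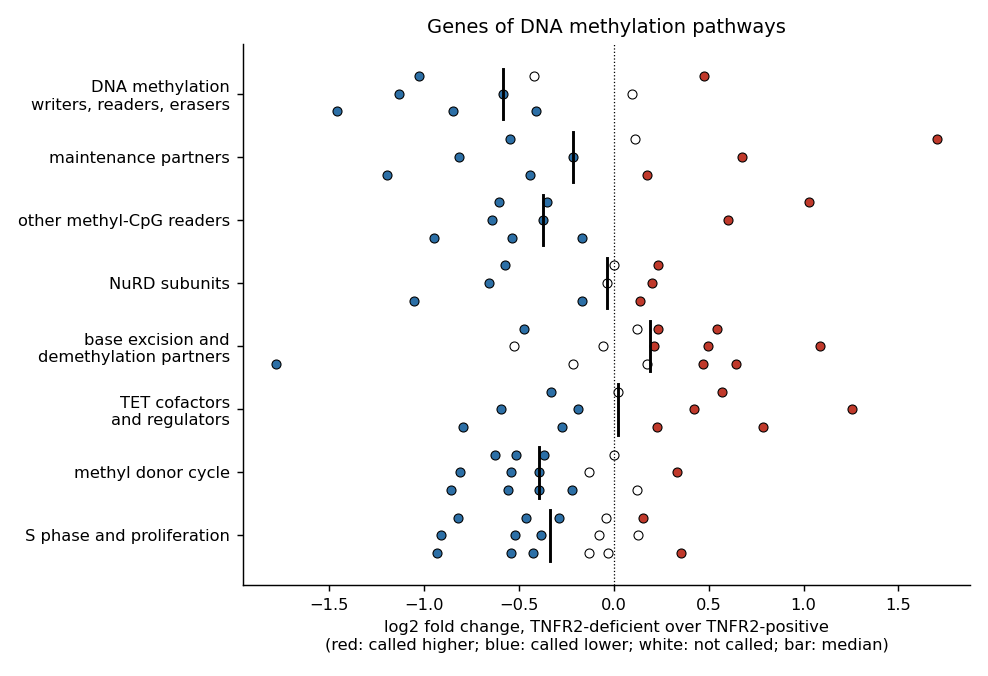
Log2 fold change, TNFR2-deficient over TNFR2-positive (horizontal axis), of each tested gene in the 9-gene set and 7 pathway lists (rows); red points were called higher, blue lower and white not called, and black bars are list medians. The methyl donor and S phase lists sit mostly below 0, and the median of the 9-gene set is -0.58, the lowest shown. In the length-adjusted fit it was -0.13, above the medians of the methyl donor (-0.35), S phase (-0.29) and TET cofactor (-0.14) lists.

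The 6 genes whose loci are known to be demethylated in Treg cells were all lower, with a median log2 fold change of -4.27. Foxp3 itself had a log2 fold change of -5.70, Ctla4 of -6.43 and Il2ra of -4.62. Ikzf2, which encodes Helios, averaged 15.0 CPM in TNFR2-deficient and 98.7 CPM in TNFR2-positive libraries, Ikzf4, which encodes Eos, 1.13 CPM in TNFR2-deficient and 17.2 CPM in TNFR2-positive libraries, and Tnfrsf18, which encodes GITR, 1.18 CPM in TNFR2-deficient and 15.2 CPM in TNFR2-positive libraries. This list shares 5 genes with the Treg markers above, so it is no separate measure, and each of these differences was larger than that of any of the 9 genes.

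Genes whose pattern over the 6 libraries was closest to that of a member were found by the root mean square difference between centred log2(CPM + 0.5) values, among 9964 named genes with a mean of at least 5 CPM. The closest to Dnmt1 was Snx30 (difference 0.0293), to Uhrf1 Tbc1d9 (0.0263), to Dnmt3a Stk39 (0.00740) and to Dnmt3b Cd160 (0.0424), all on the log2 scale. The closest to Tet3 was Zfp445 (0.0204) and to Tet1 Pank1 (0.0994), the loosest match of those given. Mbd2 was closest to Asrgl1 (0.0133) and Tdg to Slc10a3 (0.0133).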

How the data were processed

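The authors deposited a table of raw counts per Ensembl gene for 6 libraries. Per the labels' protocols, mRNA was captured with oligo-dT beads from total RNA. Alignment tool and build are named in the submitters' processing notes as HISAT2 2.1.0 and GRCm39. How reads were assigned to genes, with which annotation and strand setting, is not given in the sources used here. Reads without molecular identifiers are not independent molecules. Symbols were matched for 30529 of 32377 identifiers.

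The quasi-likelihood test of edgeR 4.0.16 (R 4.3.3) was fitted with 1 term for group, after filterByExpr and TMM scaling; p-values were adjusted over all 17022 genes tested. SEs are the log2 fold change divided by the square root of F. The script was tested on simulated data. Variation between libraries beyond counting error, which may be technical, came to a common coefficient of 7.62%. Levels per kilobase used the union of annotated exons (GENCODE M21, GRCm38, 97.8% of tested genes). Exons of that annotation also showed whether promoter letters lay in an annotated exon. Shares were compared by exact permutation over libraries. In the length-adjusted fit, each library's log2 level received a spline in exonic and in intronic length (4 degrees of freedom each) as an offset. Promoters came from RefSeq, GRCm38.p6, and the promoter coordinates printed are on that build.

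Members and gene lists were chosen with earlier results of these data known. Named genes are the 9, the Treg demethylated genes, Tnfrsf1b, Rag1, Trac, the 2 smallest adjusted p-values of each pathway list, and the closest gene to each of the 9 (that of Tet2 is not reported here); overlapping genes and copies of Tdg were named as well. No libraries agreed within sampling noise. Whether the same replicate number marks a pair of libraries across groups is not given (see the closing section). Alternatives covered DESeq2 1.42.0, limma-voom (limma 3.58.1), scaling, filters, a block, each library left out, gene length, and omission of other cells' marker genes.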

Additional observations from a re-analysis of the deposited data

How the results depend on the processing

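Over the alternatives named under processing, other than those added later, Dnmt1, Dnmt3b, Tet2, Tet3, Uhrf1 and Mbd2 kept their direction and an adjusted p below 0.05, with log2 fold changes of -1.20 to -0.78, -1.12 to -0.87, -1.55 to -0.72, -0.92 to -0.13, -0.47 to -0.36 and 0.44 to 0.53. In the length-adjusted fit the log2 fold change of Dnmt3a was 0.12, of Tet1 0.27 and of Tdg 0.18, with Tdg now called higher. That fit had 3 of the 9 genes higher, 3 of the reader list lower, 2 methyl donor genes higher and 1 S phase gene higher. The cause was not tested. A pair of alternatives was chosen after seeing the data. Lengths from the longest transcript gave 0.12 for Dnmt3a, 0.49 for Tet1 and -0.077 for Tet3. With these lengths 3 of the 9 were higher, 2 of the reader list lower and 1 S phase gene higher. Length removal without TNFR2-positive library 1 gave 0.12 for Dnmt3a, 0.44 for Tet1 and 0.18 for Tdg. It had 4 of the 9 higher, 3 of the reader list lower and 1 S phase gene higher. Tet1 was called higher in both of this pair (edgeR adjusted p = 0.00533 and 0.00832). Tet1 was called lower by DESeq2 (-0.45) and without a filter on low counts (-0.38). With 1 library left out Tet1 ranged between -0.57 and -0.12, NuRD subunits called higher between 0 and 3, methyl donor genes called higher between 0 and 1, S phase genes called higher between 1 and 3, and the difference in the Dnmt3b share between -0.65 and 0.52 percentage points. DESeq2 called 4 base excision genes and 1 S phase gene higher, RLE scaling 1 S phase gene, and upper-quartile scaling 2 methyl donor genes. The log2 ratio of summed TET to summed DNMT level differed by -0.031 with the longest transcript as length and by -0.066 without division by length, against 0.03 in the report, all within the spread between libraries.

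The labels do not say whether libraries of the same number were paired. Same-numbered libraries had correlations of 0.0705, 0.0962 and -0.0901 in their deviations from the group means, and other pairs between -0.169 and 0.115. Deviations from means of 3 libraries cannot settle whether the numbers mark pairs. With the replicate number as a block, 11856 genes were called and Tet1 had a log2 fold change of -0.40 (edgeR adjusted p = 0.0112); not every library correlated best with its own number. Depth limits Tet1 and Dnmt3b most, with 134 to 329 and 147 to 328 counts per library.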
